A study of Mus musculus with 14 samples.

Results

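The comparison set naloxone libraries against NC libraries of cultured mouse neural stem cells (NSC) at 3 stages, with day 2 of differentiation left out. Its members are defined by their labels of treatment and stage, and were chosen with earlier results of these data known. They are the naloxone and the NC library of undifferentiated cells, of day 4 and of day 8, which makes 6 of the 14 libraries of the series, 3 a side. The series asks how opioid drugs act on NSC that proliferate or differentiate, and its other libraries are those with DAMGO, those of day 2 and 2 reference cultures. All 6 libraries came from total RNA of passage 8 NSC of the OG2 strain, a mouse line with a green fluorescent reporter of Pou5f1. The naloxone group was cultured with naloxone, alone or while the cells differentiated, and the NC group carries only that label. The dose and schedule of naloxone, what NC received, the tissue of origin and the differentiation medium are in none of the sources used here. Each stage had 1 library of each group, so no condition was replicated. The p-values below rest on the spread between the 3 stage pairs, moderated across genes so that each gene also draws on the spread of the others.

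Naloxone is an antagonist of the opioid receptors, which are G protein-coupled receptors that act mainly through inhibitory G proteins and lower cyclic AMP. NSC divide while growth factors are present and give rise to astrocytes, neurons and oligodendrocytes when they differentiate. Transcripts differ in GC content, the share of G and C among their bases, and RNA-seq libraries are known to differ in how well they recover transcripts of low or high GC content.

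The naloxone over NC ratio at day 8 varied with GC content, so stretches of the coding sequence are shown for 5 genes named at that stage, to let their base composition be seen. Among the 5 genes furthest lower in naloxone at day 8 (Matr3 aside) they are the 3 of lowest GC content. Among the 5 furthest higher they are the 2 of highest GC content. Each stretch is the middle 90 bases of the longest coding exon part, with every G and C in capitals.
Arhgap5: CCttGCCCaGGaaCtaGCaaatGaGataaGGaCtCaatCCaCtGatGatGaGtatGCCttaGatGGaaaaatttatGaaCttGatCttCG
Ranbp2: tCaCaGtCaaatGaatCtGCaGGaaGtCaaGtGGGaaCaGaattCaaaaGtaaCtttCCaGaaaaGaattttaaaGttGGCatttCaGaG
Stag2: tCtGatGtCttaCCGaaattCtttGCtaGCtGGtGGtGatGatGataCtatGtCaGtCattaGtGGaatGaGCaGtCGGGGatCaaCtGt
Tom1: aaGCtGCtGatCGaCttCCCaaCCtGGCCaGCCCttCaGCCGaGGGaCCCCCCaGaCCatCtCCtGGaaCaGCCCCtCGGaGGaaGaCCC
Angptl4: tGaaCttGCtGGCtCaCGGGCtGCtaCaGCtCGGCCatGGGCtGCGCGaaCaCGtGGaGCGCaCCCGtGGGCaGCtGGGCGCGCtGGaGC
The sequences come from GENCODE M21 transcripts on GRCm38, the assembly that mm10 names. The stretch of Arhgap5 lies in exon 1 at chr12:52518062-52518151 on the plus strand (40% GC), that of Ranbp2 in exon 20 at chr10:58478443-58478532 on the plus strand (35.6%), and that of Stag2 in exon 29 at chrX:42262725-42262814 on the plus strand (43.3%). That of Tom1 lies in exon 16 at chr8:75069280-75069369 on the plus strand (64.4%), and that of Angptl4 in exon 1 at chr17:33781182-33781271 on the minus strand (70%). Over all exons the GC content was 34.2% for Arhgap5, 40% for Ranbp2 and 40.2% for Stag2, against 56.0% for Tom1 and 50.7% for Angptl4. With the trend on GC content and length removed, the day 8 log2 ratios of these genes kept their direction, at -0.73 for Arhgap5, -1.07 for Ranbp2, -1.11 for Stag2, 1.98 for Tom1 and 0.71 for Angptl4.

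The naloxone libraries held 5750975 estimated counts before differentiation, 5219529 at day 4 and 9070533 at day 8, and the NC libraries held 4913497, 5771564 and 5729020. The naloxone library of day 8 was the deepest of the 14, whose totals began at 4143030. Levels are in CPM, counts relative to the library total after TMM scaling, and 3 counts equalled 0.349 to 0.603 CPM in a library and 0.0827 CPM over the 6. The fragments behind the counts averaged 175.6, 167.7 and 158.7 bases in naloxone (undifferentiated, day 4, day 8) and 183.9, 168.8 and 160.6 bases in NC. In the undifferentiated cultures the NSC marker gene Nes, an intermediate filament, stood at 1733 CPM in naloxone and 1765 CPM in NC, and the proliferation marker Mki67 at 1267 and 1353 CPM. By day 8 the astrocyte filament gene Gfap stood at 8865 CPM in naloxone and 8232 CPM in NC. The 12 microglial genes summed to 0 to 0.9 CPM in naloxone and 0.9 to 2.4 CPM in NC, with C1qa, C1qb, C1qc, Cx3cr1 and Trem2 at 0. The 10 pluripotency genes summed to 4.2 to 14.6 CPM in naloxone and 2.3 to 14.7 CPM in NC, with Pou5f1, Zfp42, Lin28a, Dppa3, Utf1 and Fgf4 at 0. Whether a lower level reflects fewer cells of a type or less RNA in each cannot be told apart in bulk libraries.

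The fit over the 3 stages tests the average difference between naloxone and NC across the stage pairs. No gene passed. With edgeR's quasi-likelihood test and Benjamini-Hochberg adjustment, 0 of 13142 genes (0%) were called, the smallest adjusted p was 0.996, and 297 genes (2.26%) had an unadjusted p under 0.05. DESeq2 called 0 with 20 genes under that p, limma-voom 0 with 362, and limma on log2(TPM + 1) 0 with 506. Of 11240 genes with a mean of at least 5 CPM, 1469 were higher in naloxone at all 3 stages and 1411 were lower at all 3. Of the same genes, 2 differed by at least 1.5-fold in the same direction at every stage. By any amount, 49.8%, 49.3% and 50.9% of the 13142 genes were higher in naloxone at the 3 stages. Many genes would thus share 1 direction even if the stages were unrelated, and the counts were not tested against that. The fit has 2 residual degrees of freedom per gene, and its spread is moderated across genes. That spread holds library noise together with any difference of the drug's effect between stages.

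Higher in naloxone at all 3 stages, the 10 genes of smallest p did not pass. Ccn1, a secreted matricellular protein that responds to serum and mechanical tension (chr3:145646976-145649981), stood at 7.22, 35.9 and 226 CPM in naloxone and 4.83, 24.5 and 165 CPM in NC. Its pairs of undifferentiated cells, day 4 and day 8 are given in that order here and below. The fitted log2 difference of Ccn1 was 0.50 ± 0.09 (SE), with an unadjusted p of 0.000548 and an adjusted p of 0.996 in edgeR. It was higher in naloxone by close to the same ratio each time, 1.5 (0.885 to 2.58, 95% exact counting interval), 1.47 (1.18 to 1.83) and 1.37 (1.27 to 1.49), whereas its level differed far more between stages than between groups.

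Rassf4, of the Ras association domain family (chr6:116633008-116673952), had 3.27, 5.71 and 148 CPM in naloxone and 2.82, 5.33 and 76.1 CPM in NC. The difference lay at day 8, with a ratio of 1.94 (1.74 to 2.17), and the intervals of the other stages included 1. Prelp, a small leucine-rich matrix proteoglycan, had 1.72, 24.5 and 281 CPM in naloxone and 0.603, 19.8 and 197 CPM in NC. Bace2, a membrane protease related to the beta-secretase of amyloid precursor protein (chr16:97356742-97442936), had 3.1, 7 and 207 CPM in naloxone and 2.62, 5.83 and 147 CPM in NC. Rassf4, Prelp and Bace2 had 10 to 19 counts in naloxone and 3 to 14 in NC in undifferentiated cells. For Prelp and Bace2 too, the intervals of the ratio included 1 in undifferentiated cells and at day 4. At day 8 the ratios were 1.42 (1.32 to 1.53) for Prelp and 1.41 (1.297 to 1.535) for Bace2. The fitted log2 differences of Rassf4, Prelp and Bace2, 0.75 ± 0.17, 0.47 ± 0.12 and 0.43 ± 0.11, thus rest mostly on the day 8 pair. Col12a1, a fibril-associated collagen, was measured well at each stage, at 35.8, 63.3 and 49.6 CPM in naloxone and 31.4, 51.5 and 33.6 CPM in NC. The other 5 were Asl, the argininosuccinate lyase of the urea cycle, the kinase gene Nek3, the pseudouridine synthase gene Pusl1, the cilium gene Tmem216 and Zbed6, with fitted log2 differences of 0.45 to 0.62. That of Zbed6 was -0.04 with the day 2 libraries added. Pusl1, Tmem216 and Zbed6 share exon bases with Ints11, Cpsf7 and Zc3h11a, and their counts are uncertain for that reason.

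Lower at all 3 stages, the 10 genes of smallest p did not pass either. Apoo, a component of the contact sites of the mitochondrial inner membrane, had 22.9, 19.9 and 20.8 CPM in naloxone and 30.6, 24.0 and 30.1 CPM in NC, a log2 difference of -0.41 ± 0.11. Kpna2, an importin alpha that is abundant in dividing cells (chr11:106988629-106999541), had 23.4, 4.79 and 5.46 CPM in naloxone and 38.6, 6.16 and 6.97 CPM in NC. Its ratio in undifferentiated cells was 0.606 (0.482 to 0.758), and the intervals at day 4 and day 8 included 1. Sc5d, which introduces a double bond late in cholesterol synthesis, had 82.2, 112 and 61.3 CPM in naloxone and 97.8, 129 and 78.5 CPM in NC. Its ratios were 0.841 (0.740 to 0.956), 0.863 (0.775 to 0.961) and 0.781 (0.687 to 0.890), with intervals of counting error that all excluded 1. The fitted log2 difference of Sc5d was -0.27 ± 0.08, and -0.18 ± 0.07 with the trend on GC content and length removed. Its day 8 log2 ratio was -0.35 as measured and -0.08 with that trend removed. Tlr3, the endosomal receptor for double-stranded RNA, had 4.99, 8.84 and 11 CPM in naloxone and 6.03, 11.7 and 21.1 CPM in NC. The remaining 6 were Dusp19, Uchl3, Cox11, Cbr4, Pigg and Ipp, with fitted log2 differences of -0.54 to -0.39. Cox11 shares exon bases with Tom1l1 and Dusp19 with Nup35. The 10 lower genes had GC contents of 40.8 to 48.2%, and the 10 higher ones 42.4 to 56.8%. With the trend removed the fitted log2 differences of the lower genes ran from -0.51 for Kpna2 to -0.18 for Sc5d. The day 8 log2 ratio went from -0.91 to -0.44 for Tlr3 and from -0.50 to -0.08 for Dusp19.

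**Figure D1:**
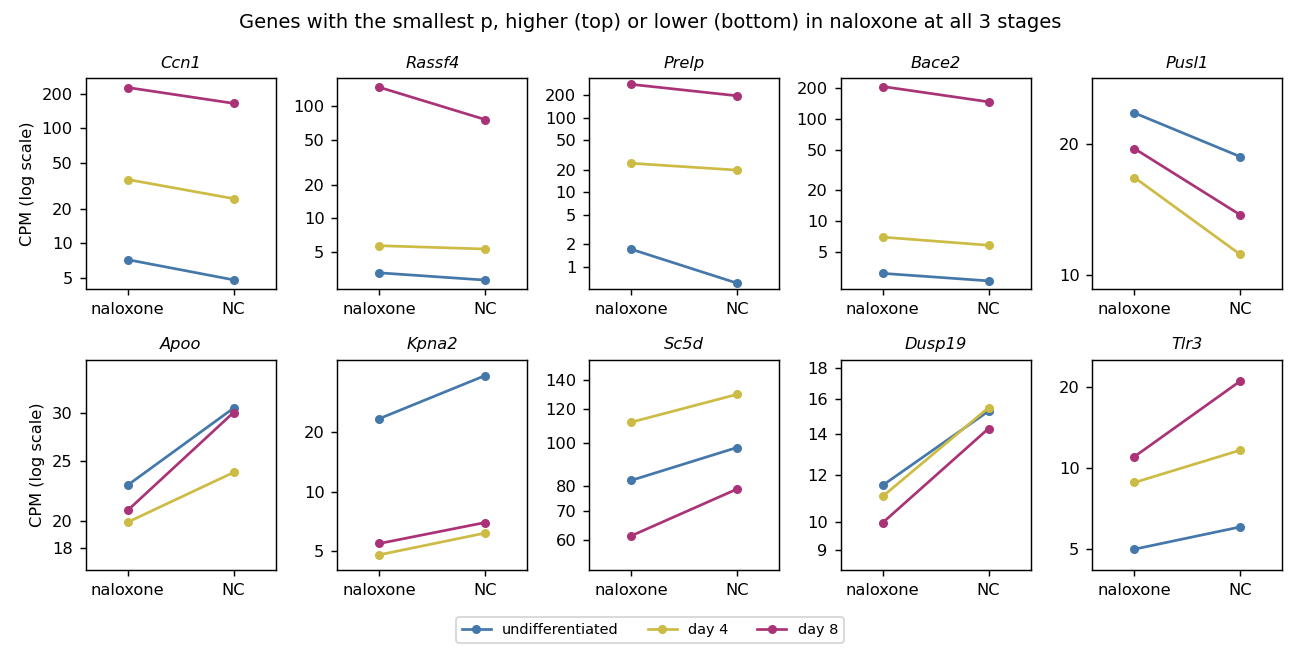
CPM (log scale) in the naloxone and the NC library of each stage, 1 library per point, for the 5 genes of smallest p higher in naloxone at all 3 stages (top) and the 5 lower at all 3 (bottom). Lines join the 2 libraries of a stage. Every line of a row tilts the same way by selection, since only genes of 1 direction at all 3 stages were ranked. For Ccn1 the stages lie from 4.83 to 226 CPM.

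With the trend on GC content and length removed within each stage, 2 of 13142 genes (0.0152%) were called in the same edgeR fit, both higher in naloxone. They are the predicted genes Gm10800 (chr2:98666547-98667301) and Gm26870 (chr9:3000282-3038313), which were chosen for naming after their values were seen. Gm10800 had 0, 0 and 48.4 CPM in naloxone and 0, 0 and 16.1 CPM in NC, and Gm26870 had 0, 0.184 and 50.4 CPM in naloxone and 0, 0 and 17.4 CPM in NC. Apart from 1 count of Gm26870 at day 4, both were measured in the day 8 pair only, so the call shows a difference between 2 libraries and not between 3 pairs. Their adjusted p-values in edgeR were 0.000597 and 0.000490, and Gm26870 shares exon bases with other predicted genes. The levels of Gm10800 and Gm26870 lay close together in both day 8 libraries. Whether the 2 share reads was not tested, so their counts are uncertain. Without the filter on low counts, and with no trend removed, 11 of 19393 genes (0.0567%) were called, 7 higher (0.0361%) and 4 lower (0.0206%), with Ccn1, Rassf4 and Fmod among the higher. With the DAMGO libraries added to the fit and the trend removed, 1 of 13303 genes (0.00752%) was called, Bace2, at an adjusted edgeR p of 0.0493. The counting interval of its naloxone over NC ratio excluded 1 at day 8 only. The 5 annotated genes of smallest p that were higher at all 3 stages after the trend was removed were Rassf4, Bace2, Ccn1, Prelp and Col12a1, the smallest adjusted p among them being 0.244. The 5 lower ones were Adgra1, an adhesion G protein-coupled receptor, the glutamine transporter gene Slc1a5, the chromatin remodeller gene Smarca1, Apoo and Kpna2, at adjusted p-values near 1.

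At day 8 the naloxone over NC ratio followed GC content, and at the other stages it hardly did. Across 13070 genes with a GC content and length, Pearson's r between the log2 ratio and GC content was 0.0702 before differentiation, -0.0384 at day 4 and 0.461 at day 8. These are descriptions across the genes of 1 library pair each, and genes are not independent replicates. With the genes cut into 10 bins of equal size by GC content, in the lowest bin (33 to 41.2%) the median log2 ratio was -0.04 before differentiation, 0.07 at day 4 and -0.57 at day 8. In the highest bin (57.3 to 75%) it was 0.05, 0.04 and 0.13. The day 8 medians climbed from bin to bin up to 0.08 in the sixth and stayed between 0.11 and 0.13 above it, so on the TMM scale GC-poor genes stood further from 0 than GC-rich ones.

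**Figure D2:**
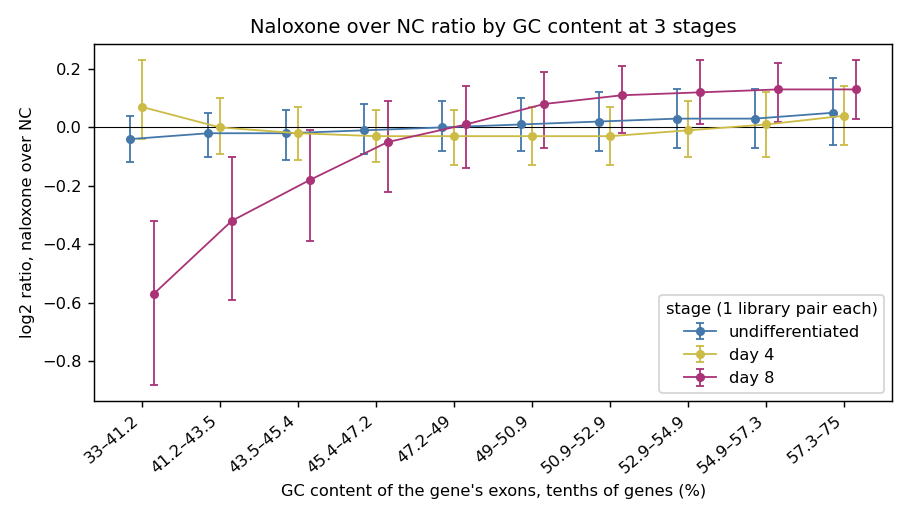
Median log2 ratio of naloxone over NC (y axis) in 10 bins of genes ordered by the GC content of their exons (x axis, %), 1 library pair per stage, with bars from the 25th to the 75th percentile of genes. The day 8 line starts at -0.57 and reaches 0.13, while the undifferentiated and day 4 lines stay between -0.04 and 0.07.

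The relation to transcript length at day 8 differed between GC classes. The r with log length was -0.0392 before differentiation, 0.0212 at day 4 and -0.102 at day 8, and the day 8 value was 0.0225 with GC content held fixed, while that with GC content was 0.452 with length held fixed. Among genes of 33 to 43.5% GC at day 8, the median log2 ratio was -0.39 in the shortest of 3 length classes (139 to 2823 bases), -0.34 in the middle one and -0.53 in the longest (4503 to 123179 bases). Among genes of 47.2 to 50.9% GC it was -0.02, 0.06 and 0.08 in those classes, and among genes of 54.9 to 75% GC it was 0.10, 0.15 and 0.16. Long genes thus had the lowest median among GC-poor genes and the highest in these other 2 GC classes. The r with GC content held fixed was taken over all GC classes together. GC content still varied within each class, so length and GC content cannot be told apart there.

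The spread of the ratios was wider at day 8 too. Among 11240 genes with a mean of at least 5 CPM the SD of the log2 ratio was 0.253 before differentiation, 0.243 at day 4 and 0.385 at day 8, or 0.252, 0.238 and 0.301 with the trend removed. Genes at least 1.5-fold higher in naloxone numbered 175 (1.56%), 195 (1.73%) and 142 (1.26%), and those at least 1.5-fold lower 145 (1.29%), 141 (1.25%) and 1078 (9.59%). With the trend removed those higher numbered 166 (1.48%), 160 (1.42%) and 227 (2.02%), and those lower 148 (1.32%), 137 (1.22%) and 358 (3.19%). Between stages, which share no library, r of the log2 ratios across these genes was -0.0470 for undifferentiated cells with day 4, 0.0635 for undifferentiated cells with day 8 and -0.153 for day 4 with day 8.

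The naloxone library of day 8 showed the trend against both other libraries of its stage. Against the DAMGO library of day 8, the naloxone library gave an r with GC content of 0.572 and an SD of 0.363. The DAMGO library against the NC library gave 0.013 and 0.246, and naloxone against NC gave 0.547 and 0.385 over the same genes. These pairs share libraries, so the 3 values are set side by side only. At day 2, where naloxone and NC were not compared further, r was 0.622 for naloxone over NC and 0.591 for DAMGO over NC. Depth and fragment length also differed within the day 8 pair (9070533 counts and 158.7 bases in naloxone, 5729020 counts and 160.6 bases in NC). The DAMGO library of day 8 had 6202066 counts and 170.5 bases. The part of depth and fragment length in the trend was not tested. In undifferentiated cells the passage 8 reference culture stood further from both groups than they from each other, with an SD of 0.342 for naloxone over the reference, 0.351 for NC over the reference and 0.254 for naloxone over NC.

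**Figure D3:**
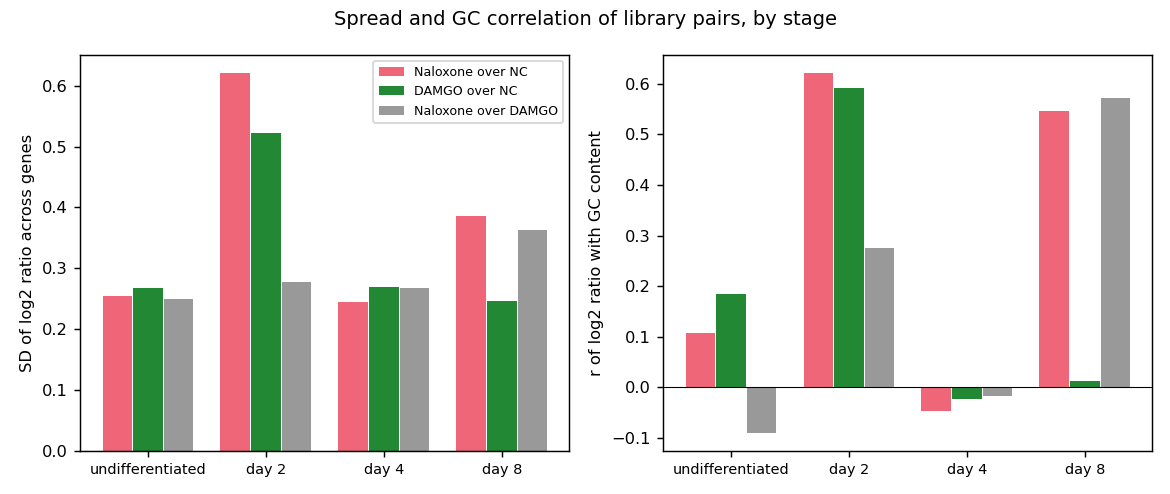
SD of the log2 ratio across genes (left) and its r with GC content (right) for naloxone over NC, DAMGO over NC and naloxone over DAMGO at each stage, 1 library pair per bar, day 2 included. At day 8 both bars with naloxone reach an r of at least 0.547 and the bar without it is at 0.013.

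Genes far apart at 1 stage are given with no test, since each rests on 1 library a side, and only genes with a pair mean of at least 20 CPM at that stage were ranked. Among these, the ratio furthest below 1 in undifferentiated cells was that of Lars2, the mitochondrial leucyl-tRNA synthetase, at 86.7 CPM in naloxone and 196 CPM in NC (ratio 0.442, 0.396 to 0.493). At day 4 Lars2 stood at 121 CPM in naloxone and 81.5 CPM in NC, the opposite direction, and at day 8 at 144 and 143 CPM. The other 4 lower genes of that stage were Kpna2, Timm8a1, Znhit3 and Poc5, at ratios of 0.606 to 0.712. Those furthest higher were Pheta1, the proprotein convertase gene Furin, the folate enzyme gene Fpgs, Aldh4a1 and Plekha7, at ratios of 1.48 to 1.77, with Pheta1 at 25.6 CPM in naloxone and 14.5 CPM in NC.

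At day 4 the 5 genes furthest higher in naloxone were GC-poor, and 4 of them lay in the longest of the 3 length classes. Phip, a bromodomain protein, had 112 CPM in naloxone and 56.3 CPM in NC (ratio 2, 1.75 to 2.29). Arhgap5, a GTPase-activating protein (chr12:52503972-52571975), had 212 CPM in naloxone and 110 CPM in NC (1.92, 1.74 to 2.12). Zfp292, the condensin subunit gene Smc4 and Casp8ap2 followed at ratios of 1.92, 1.89 and 1.80. The GC content of these 5 genes was 34.2 to 41.2% and their longest transcripts had 4316 to 10756 bases. At day 8 all 5 were lower in naloxone, Arhgap5 at 25.4 CPM against 76.5 CPM in NC (ratio 0.333, 0.281 to 0.393) and Phip at 6.85 against 16.5 CPM. With the trend removed their day 8 log2 ratios ran from -0.02 for Zfp292 to -1.03 for Casp8ap2. Over all genes of at least 5 CPM, 86 were at least 1.5-fold apart in opposite directions at day 4 and day 8, and 32 in the same direction. Among the genes furthest lower at day 4 were Tom1, Uimc1 (27.6 CPM in naloxone, 45 CPM in NC), Nudt2 and Nynrin.

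Tom1, an adaptor protein of endosomal sorting (chr8:75033705-75070121), had the ratio furthest above 1 at day 8, and it was the furthest below 1 at day 4. It stood at 37.5, 16.8 and 110 CPM in naloxone and 33.4, 34.8 and 25.5 CPM in NC, so that the groups were close in undifferentiated cells and crossed afterwards. The ratios were 1.12 (0.913 to 1.38), 0.481 (0.372 to 0.618) and 4.31 (3.60 to 5.19). An antisense gene, Gm45822, overlaps an exon of Tom1, and strand is not given for the counts. The next at day 8 were Rassf4, Dynlt1a at 29.3 CPM in naloxone and 15 CPM in NC, Sel1l3 at 30.1 and 15.8 CPM, and Angptl4, a secreted inhibitor of lipoprotein lipase, at 47.4 and 27.3 CPM. Dynlt1a has near-identical copies and shares exon bases with Tmem181a, so its counts are uncertain.

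Among the 5 genes furthest lower at day 8 was Arhgap5, given above. Ranbp2, a nucleoporin on the cytoplasmic face of the nuclear pore, had 9.87 CPM in naloxone and 33.0 CPM in NC (ratio 0.299, 0.228 to 0.389). Stag2, a cohesin subunit, had 12.4 CPM in naloxone and 39.6 CPM in NC (0.314, 0.246 to 0.397), and Matr3, an RNA-binding protein of the nuclear matrix, 37.5 and 112 CPM (0.335, 0.292 to 0.384). Hsp90aa1, the inducible cytosolic chaperone, had 75.6 CPM in naloxone and 217 CPM in NC (0.348, 0.316 to 0.383). In undifferentiated cells and at day 4 the ratios of these 4 genes were between 0.941 and 1.16, with Hsp90aa1 at 992 and 665 CPM in naloxone and 1007 and 664 CPM in NC. Ranbp2, Stag2 and Matr3 had a GC content of 38.9 to 40.2%, in the bin of lowest day 8 median, and Hsp90aa1 one of 45.5%, in a bin whose median was -0.05. As measured the day 8 log2 ratios were -1.71 for Ranbp2, -1.65 for Stag2, -1.57 for Matr3, -1.52 for Hsp90aa1 and -1.58 for Arhgap5. With the trend removed those of Matr3 and Hsp90aa1 were -0.96 and -1.40, beside the values of the other 3 given with their sequences.

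Lists of genes by pathway and cell type are described by their counts and medians beside those of all genes tested. No list held a gene that passed. By any amount, 49.8% of the 13142 genes were higher in naloxone before differentiation, 49.3% at day 4 and 50.9% at day 8, and 49.2%, 50.4% and 48.9% were lower. The median log2 ratio of all genes tested was 0.00, 0.00 and 0.01. Genes named below without a p were picked after their values were seen.

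Matrix and contractile genes were higher in naloxone at day 8. Of 10 extracellular matrix genes tested, 9 were higher at day 8, with medians of 0.11, -0.05 and 0.31, and 0.27 at day 8 with the trend removed. Fibronectin, Fn1, stood at 14.1, 34.6 and 70.5 CPM in naloxone and 10.1, 38.1 and 42.4 CPM in NC. The heparan sulfate proteoglycan genes Hspg2 (fitted log2 difference 0.30 ± 0.10) and Agrn (0.17 ± 0.07) and the collagen gene Col5a1 (0.33 ± 0.14) had the smallest unadjusted edgeR p of the list, 0.0184, 0.0391 and 0.0362. Lamb1, a laminin subunit, was the 1 lower member, at 3.72 CPM in naloxone and 4.77 CPM in NC.

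Of 16 actin cytoskeleton and serum response genes, 15 were higher in naloxone at day 8, with medians of 0.02, 0.00 and 0.26, and 0.21 at day 8 with the trend removed. Thbs1, the secreted glycoprotein thrombospondin 1, stood at 1.55, 41.6 and 313 CPM in naloxone and 2.21, 43.5 and 208 CPM in NC. Flna, the actin cross-linker filamin A, stood at 465, 341 and 1177 CPM in naloxone and 472, 343 and 885 CPM in NC. Thbs1 was thus higher in naloxone at day 8. Its levels before differentiation were low, where 3 counts equalled 0.516 CPM in naloxone and 0.603 CPM in NC. No direction is read from them, and whether the stages differ was not tested. Acta2, smooth muscle actin, had 2.24, 7 and 40.2 CPM in naloxone and 0.201, 4.16 and 30.8 CPM in NC, and Ccn2, a relative of Ccn1, 0.344, 4.05 and 25.7 CPM in naloxone and 0, 2.83 and 16.3 CPM in NC. In undifferentiated cells Acta2 had 13 counts in naloxone and 1 in NC, and Ccn2 had 2 and 0. Of 12 markers of mesenchyme and pericytes, 4 were tested, and Acta2, also in the actin list, is 1 of them. Of these 4, 3 were higher in naloxone at day 8 and 1 was lower. In undifferentiated cells and at day 4, 2 were higher and 2 lower. The surface protein gene Thy1 was lower at all 3 stages, with log2 ratios of -0.09, -0.24 and -0.45. The 12 markers, all with a count in some library, summed to 16.9 to 164 CPM in naloxone and 15.9 to 138.7 CPM in NC. Markers of endothelium summed to 4.1 to 25.1 CPM in naloxone and 4.5 to 16.7 CPM in NC, with Cdh5 and Cldn5 at 0. Their part in the result was not tested.

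Cholesterol synthesis genes were slightly lower in naloxone once the cells differentiated. Of 23 genes, 17 were higher before differentiation, 1 at day 4 and 3 at day 8, with 6, 22 and 20 lower. The median log2 ratios were 0.03, -0.11 and -0.17, and 0.04, -0.10 and -0.14 with the trend removed. Hmgcs1, which condenses acetyl units for the mevalonate pathway, stood at 2082, 3161 and 1069 CPM in naloxone and 2066, 3388 and 1752 CPM in NC. Idi1, the isopentenyl diphosphate isomerase, stood at 518, 249 and 55.6 CPM in naloxone and 527, 287 and 101 CPM in NC. Both lie at 41.5 to 42.1% GC, and they were the only 2 of the 23 at least 1.5-fold lower at day 8. With the trend removed 0 of the 23 were.

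Synapse and channel genes showed the trend most among the lists. Of 24 genes, 16 were lower in naloxone at day 8 with a median of -0.39, which was -0.07 with the trend removed, and the list's median GC content was 44.0%. Gria2, the AMPA receptor subunit that limits calcium entry, stood at 776, 441 and 20.3 CPM in naloxone and 817, 302 and 52.8 CPM in NC. Among GC-rich members at day 8, Nrxn2 (58.6% GC) stood at 456 CPM in naloxone and 443 CPM in NC, and Nlgn2 (60.5% GC) at 250 CPM in naloxone and 226 CPM in NC. The 347 zinc finger genes named Zfp, with a median GC content of 44.4%, had a day 8 median of -0.25, and -0.10 with the trend removed.

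**Figure D4:**
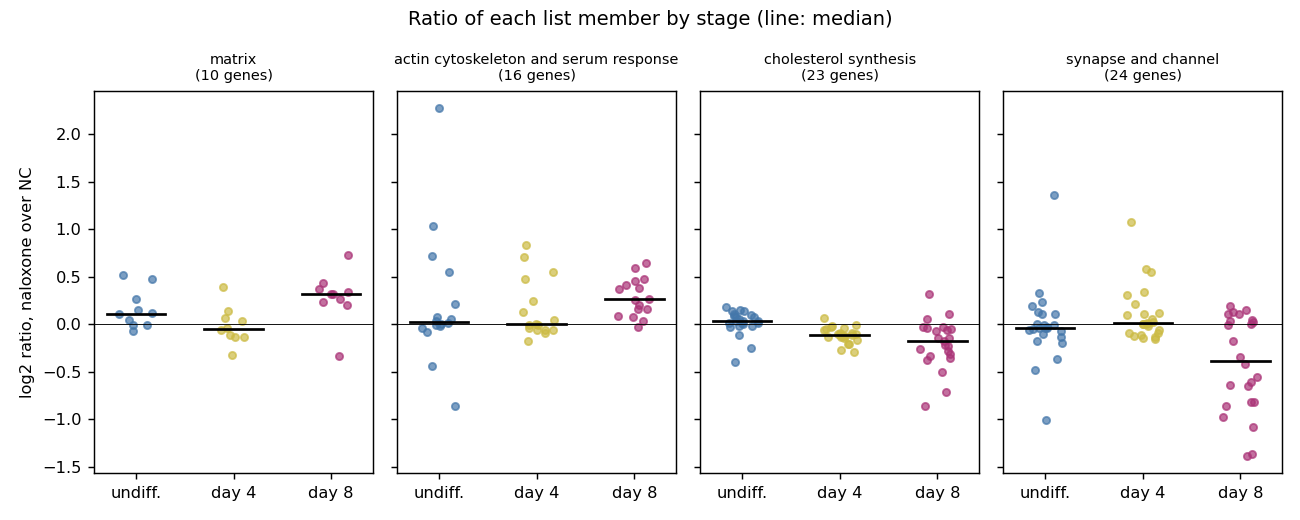
Log2 ratio of naloxone over NC (y axis) of each tested gene of 4 lists at each stage (x axis), 1 library pair per stage, with the list's median as a line. At day 8 the matrix and actin lists have medians of 0.31 and 0.26, and the cholesterol and synapse lists -0.17 and -0.39.

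Among neural cell types, 13 of 19 neuronal genes were lower in naloxone at day 8, with medians of 0.04, 0.04 and -0.19, and -0.24 at day 8 with the trend removed. Dcx, a microtubule protein of migrating young neurons, stood at 11.5, 346 and 56.2 CPM in naloxone and 11.1, 325 and 92.1 CPM in NC. Its day 8 log2 ratio was -0.71, and -0.06 with the trend removed (39.5% GC). Tubb3, the neuronal tubulin (57.9% GC), stood at 17.5, 110 and 112 CPM in naloxone and 17.1, 109 and 107 CPM in NC. The 20 stem and progenitor genes (medians 0.01, 0.02 and -0.01), the 20 astrocyte genes (0.04, -0.02 and -0.01) and the 10 oligodendrocyte precursor genes (0.01, 0.03 and 0.04) stayed near the median of all genes. Olig2, a transcription factor of the oligodendrocyte lineage, had 799, 665 and 330 CPM in naloxone and 791, 656 and 313 CPM in NC. Sox2, which maintains neural progenitors, had 318, 549 and 401 CPM in naloxone and 316, 516 and 404 CPM in NC. At day 8 Nes itself stood at 304 CPM in naloxone and 222 CPM in NC (55.3% GC), with a fitted log2 difference over the stages of 0.15 ± 0.10.

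Genes of cell division gave no common direction over the 3 stages. Of 25 G2 and M phase genes, 18 were lower in naloxone before differentiation, 9 at day 4 and 16 at day 8, and 17, 16 and 9 of 25 S phase genes. The G2 and M phase genes summed to 6506 CPM in naloxone and 6814 CPM in NC before differentiation. At day 4 they summed to 146.6 and 144.4 CPM and at day 8 to 51.2 and 60.9 CPM. Their directions at the later stages thus rest on low levels. In undifferentiated cells, where these genes are high, both medians were -0.06. Top2a, the topoisomerase that untangles chromosomes in mitosis, had a ratio there of 0.946 (0.912 to 0.982) and Kif11, a spindle motor, of 0.914 (0.854 to 0.979). Their unadjusted edgeR p-values over the 3 stages were 0.130 and 0.0941. Glycolysis and hypoxia genes were higher in 19 of 22 cases in undifferentiated cells, in 10 at day 4 and in 15 at day 8, with medians of 0.06, -0.02 and 0.07. With the trend removed 11 were higher at day 8, with a median of 0.01.

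**Figure D5:**
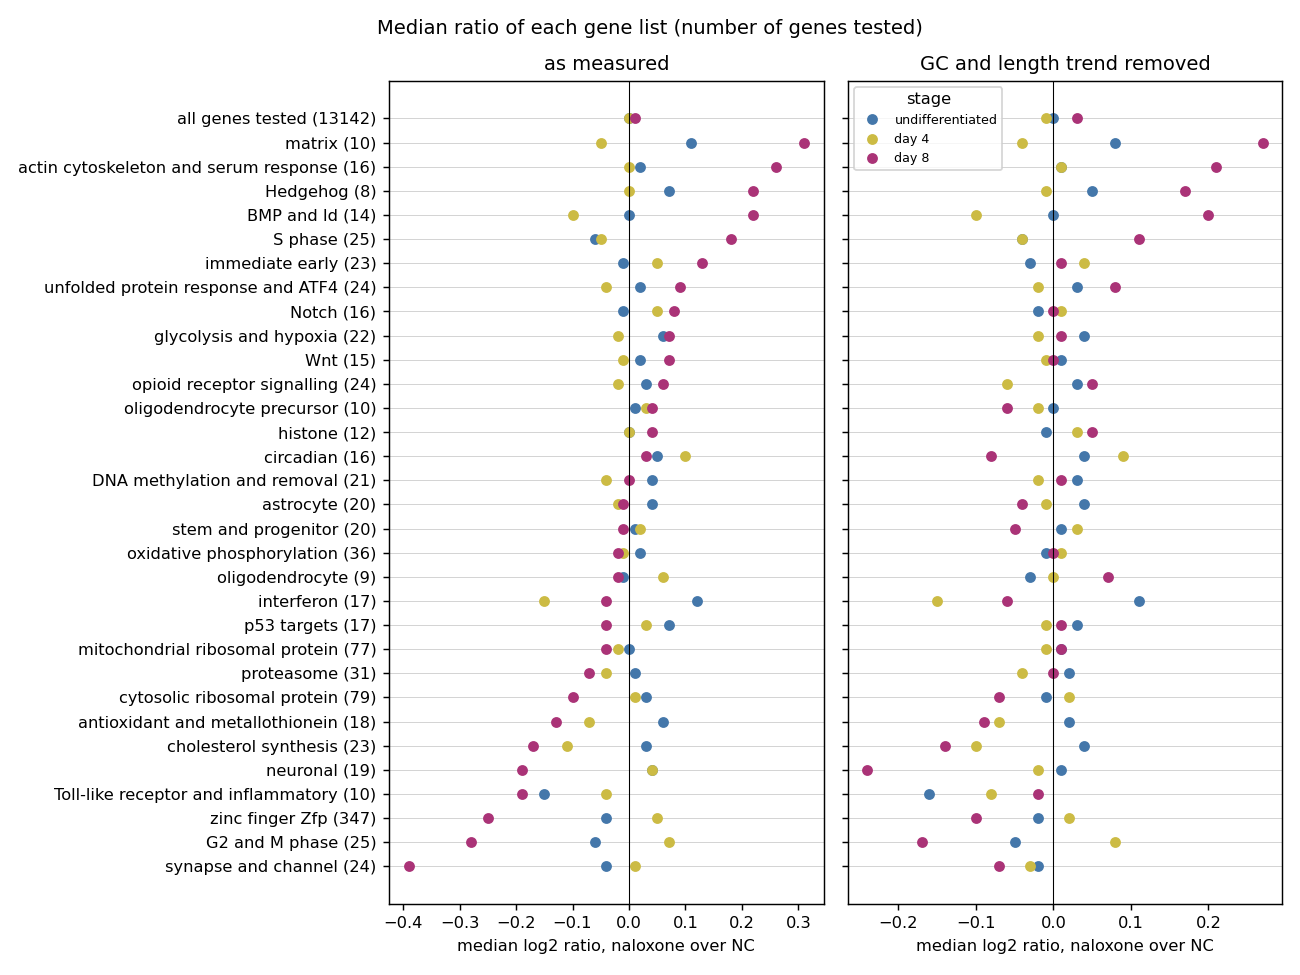
Median log2 ratio of naloxone over NC (x axis) of each gene list at the 3 stages, as measured (left) and with the GC and length trend removed within each stage (right), with the number of genes tested in brackets. The day 8 point of the synapse list moves from -0.39 to -0.07, and that of the matrix list from 0.31 to 0.27.

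Of the opioid receptor genes, Oprm1, Oprk1 and Oprd1 were near or below detection. Oprm1 (mu receptor) and Oprk1 (kappa receptor) had no count in the 6 libraries, so their level over the libraries together could be as high as 0.0827 CPM. Oprd1 (delta receptor) had 1 count, in the naloxone library of undifferentiated cells. Oprl1, the nociceptin receptor, had 1.72, 23.4 and 31.6 CPM in naloxone and 2.01, 29.3 and 26.2 CPM in NC, and the intervals of all 3 ratios included 1. Ogfr, the opioid growth factor receptor, had 83.9, 116 and 130 CPM in naloxone and 87.9, 120 and 122 CPM in NC. The 24 opioid signalling genes tested had medians of 0.03, -0.02 and 0.06, with Gnai2, an inhibitory G protein subunit, at 423, 756 and 1492 CPM in naloxone and 375, 744 and 1335 CPM in NC.

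The Tet enzymes oxidise methylated cytosine. Tet1 (44.2% GC) stood at 80, 100.3 and 10.9 CPM in naloxone and 73.0, 107 and 27.1 CPM in NC, and Tet2 (42.7% GC) at 54.0, 79.5 and 11.6 CPM in naloxone and 59.5, 75.6 and 14.9 CPM in NC. Tet3 (53.5% GC) stood at 192, 158 and 106 CPM in naloxone and 196, 169 and 93.5 CPM in NC. The day 8 ratios were 0.402 (0.307 to 0.524) for Tet1, 0.782 (0.578 to 1.06) for Tet2 and 1.13 (1.01 to 1.26) for Tet3, so that only the interval of Tet2 included 1. With the trend removed the day 8 log2 ratios were -0.91, 0.09 and 0.18. Over the 3 stages the log2 differences were -0.29 ± 0.30, -0.10 ± 0.11 and 0.01 ± 0.08, none past the threshold in edgeR at an adjusted p of 0.996 or above. The Toll-like receptor gene Tlr4, which naloxone is also reported to bind, had 4.47, 0.368 and 0.232 CPM in naloxone and 2.82, 0.167 and 0.367 CPM in NC, at or under the floor once the cells differentiated.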

How the data were processed

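The submitters' processing notes name Bowtie, RSEM and the build mm10, without versions or settings. Per the file headers, each deposited file lists for 29713 genes an expected count, a TPM, an FPKM, a length and an effective length. RSEM divides reads shared by related genes among them, and the deposited expected counts were not whole for 10.4 to 13.1% of genes. They were rounded to whole numbers here. The authors' TPM served for alternatives only, and their deposited FPKM was not used. Mean fragment length is length less effective length. GENCODE M21 gave positions, exon GC content and the length of the longest transcript for 29202 identifiers.

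The test was edgeR 4.0.16 (quasi-likelihood, TMM, its filter on low counts) in R 4.3.3 over 6 libraries with stage and treatment as terms, Benjamini-Hochberg adjustment over 13142 genes and a threshold of 0.05. The stage term is the pairing, taken from the labels. Log2 ratios of single stages use a prior count of 2. Trends on GC content and log length were fitted with mgcv 1.9.3 within a stage and entered as offsets. Intervals of ratios are exact, at 95%, and like the floor of 3 counts cover counting error only. DESeq2 1.42.0 and limma 3.58.1 were alternatives. The code was tested on simulated data.

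Named genes are the 10 each way with the largest change past the threshold (where fewer than 5 passed, the smallest p) averaging 5 CPM or more and of 1 direction at all 3 stages, 5 each way with the trend removed, 5 each way per stage with a pair mean of at least 20 CPM, up to 4 per list, and a set of receptor and cell type genes. The members and lists were chosen with earlier results of these data known. Genes with predicted names were counted only, apart from those called with the trend removed. Some genes that these rules select are not reported here.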

Additional observations from a re-analysis of the deposited data

Results flagged for a closer look

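For 6 of the genes named by stage the naloxone over NC ratio was at least 1.5-fold from 1 at both day 4 and day 8 but in opposite directions, with 1 library pair per stage. Over all genes of at least 5 CPM there were 86 such genes. The log2 ratios were 0.99 at day 4 and -1.23 at day 8 for Phip, 0.94 and -1.58 for Arhgap5, 0.94 and -0.63 for Zfp292, 0.90 and -1.30 for Smc4, and 0.84 and -1.53 for Casp8ap2. Tom1 ran the other way, at -1.04 at day 4 and 2.09 at day 8. With the trend on GC content and length removed, the day 8 values were -0.41 for Phip, -0.73 for Arhgap5 and -0.02 for Zfp292. Those of Smc4, Casp8ap2 and Tom1 were -0.72, -1.03 and 1.98. The day 4 values of the first 5 then ran from 0.57 for Arhgap5 to 0.83 for Zfp292, and Tom1 was at -1.06. At day 8 Casp8ap2 had 8 counts in naloxone and 18 in NC, and Smc4 had 24 and 40. The difference between the stages was not tested for any of them, and the first 5 are GC-poor genes, at 34.2 to 41.2% GC.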

How the results depend on the processing

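Against 0 genes called in the fit reported, removing the trend on GC content and length gave 2 (Gm10800 and Gm26870), removing that on GC content alone 2, testing 19393 genes with no filter on low counts 11 (7 higher, 4 lower, with Ccn1, Rassf4 and Fmod among them), and adding the DAMGO libraries with the trend removed 1, Bace2 at an adjusted p of 0.0493 in edgeR. Leaving out 1 library, whose partner then carries no information on naloxone because of the stage term, gave 1 to 9. It was 2 without naloxone and 9 without NC of undifferentiated cells, 1 without either library of day 4 and 3 without either library of day 8. Leaving out day 8 with the trend removed, tried after seeing the data, gave 6. Dropping the stage term, which is the replicate block, gave 0, as did 11 other settings. Among genes of at least 50 CPM, r with GC content was 0.213 in undifferentiated cells and 0.648 at day 8, and r between stages was 0.187 for undifferentiated cells with day 8 and -0.298 for day 4 with day 8. The r with length at day 8 was 0.0225 with GC content held fixed. With the trend removed the day 8 counts past 1.5-fold were 227 higher and 358 lower. At 2-fold they were 54 higher and 45 lower in undifferentiated cells, 29 and 35 at day 4, and 21 and 312 at day 8. These count settings were added after seeing the data. Among genes named for the smallest p and 1 direction at all 3 stages, 1 log2 difference changed sign, Zbed6 at -0.04 with day 2 added. For the other named genes the sign changed in 209 combinations of gene and setting, none past the threshold. The cause of these changes was not tested. Fewer than 3 counts in a library, 0.349 to 0.603 CPM, is the limit of detection.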
